A study of Mus musculus with 2 samples.

Results

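The 8 genes described here move the transmitter glutamate through its cycle: the plasma membrane transporters Slc1a1, Slc1a2 and Slc1a3, the enzymes Glul and Glud1, and the vesicular transporters Slc17a6, Slc17a7 and Slc17a8. They were taken by gene symbol from the gene and transcript tables, where they made up 8 of 55536 annotated genes and 47 of 141767 transcript models. The samples were total RNA of hippocampus, which the labels call a layer of hippocampus. They came from male mice of the hybrid strain B6CASTF1/J that were 25 days old. The labels name no treatment and no engineered allele. They give 1 group with 2 biological replicates, which have separate tissue samples but share a donor identifier, so whether they came from separate animals is not settled and their spread may be technical. With 1 group no test between conditions could be made.

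Glutamate that neurons release is cleared from the extracellular space by sodium-driven transporters of the SLC1 family, most of it by astrocytes. Astrocytes turn glutamate into glutamine with glutamine synthetase, and glutamine returns to neurons, where it is converted back and pumped into vesicles by SLC17 transporters that draw on the proton gradient of the vesicle. In the hippocampus, pyramidal and granule neurons are known for the vesicular transporter Slc17a7, whereas Slc17a6 is known from subcortical neurons and Slc17a8 from scattered cells such as a class of interneurons.

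By the level of the whole gene Slc1a2 led the group, and each step of the cycle had 1 gene far above the others of that step. Levels were read from transcripts-per-million (TPM), which corrects counts for transcript length, and are given as means ± SD (n = 2). Slc1a2 averaged 914 ± 28.0 TPM, followed by Slc17a7 at 664 ± 39.2 TPM and Glul at 658 TPM. Slc1a3 averaged 180 ± 0.813 TPM, Glud1 126 TPM and Slc1a1 62.3 TPM, and the low end was formed by Slc17a6 at 7.28 ± 2.35 TPM and Slc17a8 at 1.56 ± 0.0283 TPM. The replicates of Slc17a7 and Glul overlapped, and those of every other pair of neighbours in this order lay apart. On the leading transcript model of each gene alone, Slc1a2 and Slc17a7 overlapped as well. Slc1a2 then had 691 TPM in replicate 1 and 663 TPM in replicate 2, and Slc17a7 611.5 and 673.5 TPM. All 8 genes reached a mean of 1 TPM, a level that 58.9% of 22015 nuclear protein-coding genes reached. Among those genes Slc1a2 ranked 17, Slc17a7 35 and Glul 36, while Slc17a8 ranked 12344.

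**Figure D1:**
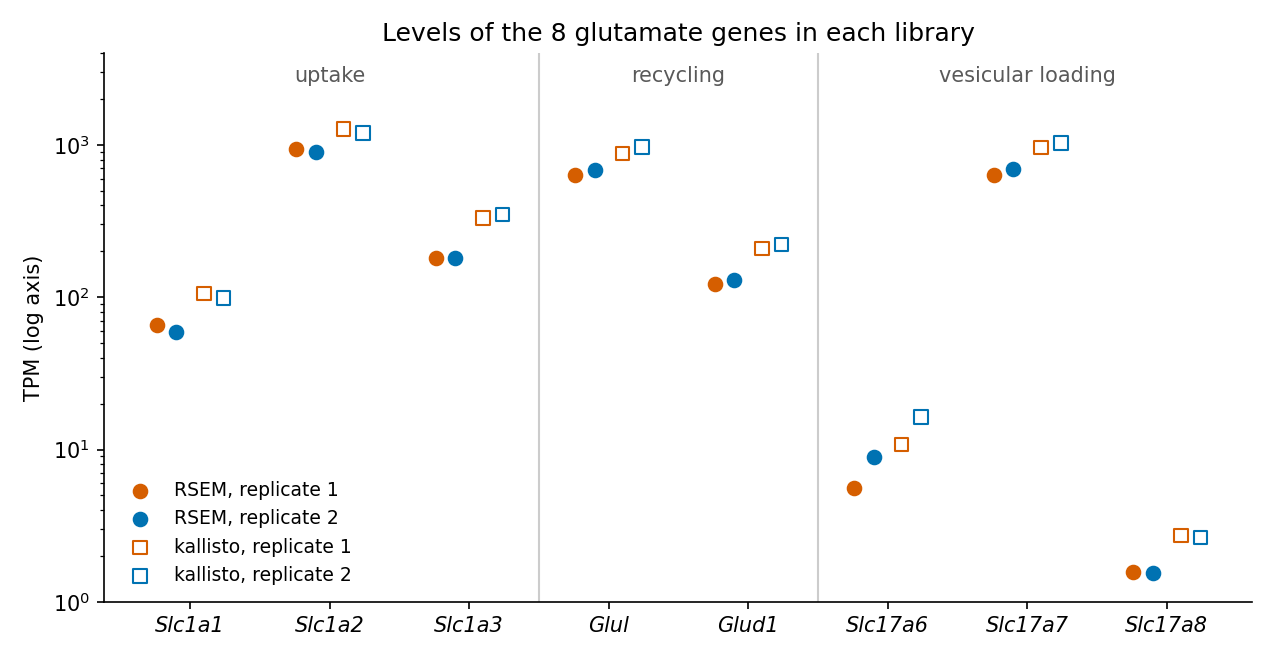
TPM of the 8 genes on a log axis, as filled circles from the RSEM gene table and open squares from the kallisto transcript table summed per gene, with replicate 1 in orange left of replicate 2 in blue. Slc1a2, Glul and Slc17a7 lay at 634 TPM or more in both replicates of the RSEM table, and Slc17a6 was the gene whose replicates lay farthest apart.

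On annotated genes, replicate 1 had 30635891 expected counts and replicate 2 had 35713471. The 8 genes took 0.857% of them in replicate 1 and 0.861% in replicate 2, and Slc1a2 alone 0.559% and 0.541% in the same order. At this depth a count of 0 would have allowed a level of up to 0.0979 counts-per-million (replicate 1) or 0.0840 (replicate 2), and Slc17a8, the lowest of the 8 genes, averaged 4.63. A set of 7 RNAs known to stay in the nucleus, among them Malat1, summed to 8426 TPM in replicate 1 and 5385 TPM in replicate 2 and was higher in replicate 1 for 7 of 7. This difference between the libraries stood beside several of the results that follow, and its part in them was not tested.

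Among the genes of uptake, Slc1a2 encodes GLT-1, the main glutamate transporter of forebrain astrocytes. It lies on chromosome 2 from 102658659 to 102790784 on the plus strand (mm10; all positions are in this build). Its level was 934 TPM in replicate 1 and 894 TPM in replicate 2, from 171270 and 193168 expected counts. The replicates differed by 0.02 on the log2 scale after scaling with TMM, a method that aligns the bulk of the genes of both libraries (95% counting interval 0.01 to 0.03, replicate 1 over replicate 2). Counting intervals cover counting error only, since reads without molecular identifiers are not independent molecules.

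Slc1a3 encodes GLAST, the other astrocyte transporter, which is also known from radial glia and the Bergmann glia of the cerebellum. It lies on chromosome 15 from 8634124 to 8710764 on the minus strand. It had 181 TPM in replicate 1 and 179 TPM in replicate 2. Slc1a1 encodes EAAC1, a transporter of neurons that also carries cysteine, and lies on chromosome 19 from 28835049 to 28913960 on the plus strand. It had 65.2 TPM in replicate 1 and 59.3 TPM in replicate 2, the lowest level of the uptake genes in both.

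Within the summed TPM of these transporters, Slc1a2 held 79.2% in replicate 1 and 78.9% in replicate 2 (79.1% ± 0.167). Slc1a3 held 15.3% and 15.8%, and Slc1a1 5.53% and 5.24%, in the same order. Slc1a2 thus stood at 5.17 times Slc1a3 in replicate 1 and at 4.99 times in replicate 2. The leading Slc1a2 model is 11595 bases long, and on counts-per-million, which are not corrected for length, the Slc1a2 share was 90.4%. In the kallisto tables, on TPM, it was 73.6%.

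The coding sequences of the uptake genes shared no long run of bases. Untranslated parts were not compared, and coding bases are 1716 of the 11595 bases of the leading Slc1a2 model. Aligned end to end, the coding sequences of the leading models were 56.3% identical between Slc1a1 and Slc1a2, 61.4% between Slc1a1 and Slc1a3, and 59.0% between Slc1a2 and Slc1a3, against 47.5% for the unrelated pair Glul and Glud1. The longest run of bases shared by any of these transporters was 20 bases, between Slc1a1 and Slc1a3. RSEM's posterior SD of the count, which grows where reads match several genes, was 0 for 6 of the 8 genes. The exceptions were Glul and Glud1, at up to 0.0251% and 0.0210% of their counts.

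Slc1a2 was also the member with the most transcript models, 12 in all. Of these, 4 have a whole coding sequence, and they differ only at its ends, which are shown here because the deposited tables apportion reads between them. These transcripts were chosen after their values were seen, except for Slc1a2-202, which passed the 10% rule for naming. Capitals mark the start codon in the first pair and the stop codon in the second pair. All run 5′ to 3′ along the spliced transcripts of this plus-strand gene, so they can join bases of separate exons.
Slc1a2-202 and Slc1a2-204, first 36 coding bases: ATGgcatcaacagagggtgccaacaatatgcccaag
Slc1a2-203 and Slc1a2-201, first 36 coding bases: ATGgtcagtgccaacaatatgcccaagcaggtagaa
Slc1a2-202 and Slc1a2-203, last 36 bases with the stop: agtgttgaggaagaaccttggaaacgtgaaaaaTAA
Slc1a2-201 and Slc1a2-204, last 36 bases with the stop: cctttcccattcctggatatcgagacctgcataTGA

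After 16 bases of its own, the coding sequence of Slc1a2-202 shares an unbroken run of 1700 bases with Slc1a2-203, whose own start is 7 bases long. At the other end, Slc1a2-204 replaces the last 66 bases of Slc1a2-202 before the stop with 33 bases. The end at TAA is the one known as GLT-1a and the end at TGA the one known as GLT-1b, a variant with a binding sequence for PDZ domains. Slc1a2-202 had 691 TPM in replicate 1 and 663 TPM in replicate 2. Slc1a2-203 had 73.5 and 73.2 TPM, Slc1a2-201 32.7 and 31.8 TPM, and Slc1a2-204 16.6 and 13.7 TPM, in the same order. Over these 4 models, the TAA end held 93.9% of TPM in replicate 1 and 94.2% in replicate 2, and the TGA end 6.06% and 5.82%. In the kallisto tables the TGA end held 5.09% of TPM in replicate 1 and 4.70% in replicate 2.

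Over the models with a whole coding sequence alone, the shares of the coding starts were close between the tables. Models outside this set, among them Slc1a2-205, were left out of these shares. The start of Slc1a2-202 held 86.9% of TPM in replicate 1 and 86.6% in replicate 2 of the RSEM tables, and 87.2% in each replicate of the kallisto tables. On expected counts the same start held 97.5% and 97.4%. Slc1a2-202 has 11595 bases, and the other models with a whole coding sequence have 1957 to 2127. It alone extends past 102781743, so reads from there fall to it whichever start their RNA used. These shares therefore do not measure the use of the starts alone. Single models did differ between the tables. Slc1a2-204 had 690 expected counts in replicate 1 and 667 in replicate 2 of the RSEM tables, against 0.0395 and 0.0134 in the kallisto tables. Slc1a2-201 had 32.7 TPM in replicate 1 and 31.8 TPM in replicate 2 of the RSEM tables, against 61.2 and 53.9 TPM in the kallisto tables.

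By where transcription begins, 5 of the 12 models start between 102658659 and 102659281, and 3 start up to 47779 bases downstream, between 102706356 and 102706438. The upstream group held 76.8% of the gene's TPM in replicate 1 and 77.0% in replicate 2. The downstream group held 20.7% and 20.9% of TPM, but 2.90% and 2.97% of expected counts. In the kallisto tables the upstream group held 83.0% and the downstream group 12.3% of TPM on average. The tables were far apart on Slc1a2-205, a downstream model of 510 bases with no annotated end, which had 86.8 TPM in replicate 1 and 82.0 TPM in replicate 2 of the RSEM tables, against 3.74 TPM and 0 in the kallisto tables.

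RefSeq lists a start at the edge of this downstream group, and the 250 bases before it are shown because the downstream models begin within or at the end of them (chr2:102706188-102706437, plus strand, GRCm38.p6).
Slc1a2, downstream start: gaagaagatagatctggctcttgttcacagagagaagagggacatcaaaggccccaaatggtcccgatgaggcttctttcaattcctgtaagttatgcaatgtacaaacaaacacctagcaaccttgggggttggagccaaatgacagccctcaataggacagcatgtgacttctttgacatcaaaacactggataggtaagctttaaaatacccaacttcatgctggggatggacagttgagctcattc
With the following 50 bases, this window had a GC content of 45.7% and 1 CpG, against medians of 52.7% and 7 over 32851 such windows. The GC box GGGCGG, searched on both strands, was not among its letters, and 35.7% of the 32851 windows held it.

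Of the recycling enzymes, Glul encodes glutamine synthetase, the enzyme by which astrocytes turn glutamate and ammonia into glutamine. It lies on chromosome 1 from 153899944 to 153909723 on the plus strand. It had 634 TPM in replicate 1 and 683 TPM in replicate 2. Glud1 encodes the mitochondrial glutamate dehydrogenase, which feeds glutamate carbon into the citric acid cycle, and lies on chromosome 14 from 34310727 to 34345265 on the plus strand. It had 123 TPM in replicate 1 and 129 TPM in replicate 2. Both enzymes were lower in replicate 1 on TMM-scaled counts, Glul by -0.14 and Glud1 by -0.12 on the log2 scale, but not with spike-in scaling, at 0.07 and 0.08.

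Glul stood at 5.16 times Glud1 in replicate 1 and at 5.29 times in replicate 2 (5.23 ± 0.0922). It was nearly level with Slc17a7, which stood at 1.00 times Glul in replicate 1 and 1.01 times in replicate 2. Slc1a2, the transporter that feeds the enzyme in astrocytes, stood at 1.47 times Glul in replicate 1 and at 1.31 times in replicate 2.

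Glul and Glud1 were the members whose TPM rested most on short models annotated without a complete end. Such models held 18.1% ± 0.734 of the TPM of Glul but 2.26% of its expected counts, and 28.8% ± 0.235 of the TPM of Glud1 but 3.99% of its counts. They reached 10% of TPM in 2 of the 8 genes, against 24.5% of 11726 protein-coding genes with several models and a mean of at least 1 TPM. The tables put these reads on different models. For Glul, RSEM gave Glul-203, 379 bases long, 111 TPM in replicate 1 and 127 TPM in replicate 2, and kallisto gave it 0 in both. Kallisto gave Glul-202, 681 bases long, 116 TPM and 173 TPM in the same order, and RSEM gave it 0 in both.

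For Glud1, RSEM gave Glud1-205, 432 bases long, 35.5 TPM in replicate 1 and 36.9 TPM in replicate 2. Kallisto instead gave Glud1-202, a model of 699 bases, 79.3 TPM and 90.6 TPM in the same order, and RSEM gave it 0. On the leading models alone, Glul-201 and Glud1-201, the ratio of Glul over Glud1 was 6.06. A processed pseudogene, Glud-ps on chromosome 7 from 125075351 to 125076007, had 0.280 TPM in replicate 1 and 0.650 TPM in replicate 2, from 3.29 and 8.84 expected counts. Reads of Glud1 could in principle fall to it.

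Among the genes of vesicular loading, Slc17a7 encodes VGLUT1, the transporter of cortical and hippocampal excitatory terminals. It lies on chromosome 7 from 45163949 to 45176142 on the plus strand. It had 636 TPM in replicate 1 and 692 TPM in replicate 2, from 37097 and 47446 expected counts. Slc17a6 encodes VGLUT2 and lies on the same chromosome from 51622006 to 51671119 on the plus strand. It had 5.61 TPM in replicate 1 and 8.94 TPM in replicate 2, from 434 and 659 expected counts. Slc17a8 encodes VGLUT3 and lies on chromosome 10 from 89574020 to 89621253 on the minus strand. It had 1.58 TPM in replicate 1 and 1.54 TPM in replicate 2, from 143 and 164 expected counts.

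Slc17a7 held 98.9% of the summed TPM of the vesicular transporters in replicate 1 and 98.5% in replicate 2 (98.7% ± 0.265). Slc17a6 held 0.872% and 1.27%, and Slc17a8 0.245% and 0.219%, in the same order. Slc17a7 stood at 403 times Slc17a8 in replicate 1 and at 449 times in replicate 2. Slc17a6 stood above Slc17a8 in both, at 3.55 times in replicate 1 and at 5.81 times in replicate 2.

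The coding sequences of this family were closer to each other than those of the uptake genes. They were 70.6% identical between Slc17a6 and Slc17a7, 71.1% between Slc17a6 and Slc17a8, and 69.2% between Slc17a7 and Slc17a8. The longest stretches they share are shown because a read no longer than these could not be told apart, with Slc17a7 so much more abundant than the others.
Slc17a6 and Slc17a7, 21 bases: AACCTGGGCGTGGCCATCGTG
Slc17a6 and Slc17a8, 25 bases: TCATGAGCGGCCTCGGCTTCTGCAT
Slc17a7 and Slc17a8, 17 bases: GGTTCCTATGCTGGGGC
All letters are shared, hence all capitals. The posterior SD of all 3 counts was 0 in both replicates.

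The 250 bases before the RefSeq start of Slc17a7 (chr7:45163671-45163920, plus strand, GRCm38.p6) are shown as the promoter of the leading vesicular gene. The window of Slc1a2 above is that of its downstream start, so the windows are not those of the main starts of both genes and are not compared. Capitals mark GC boxes, GGGCGG on the plus strand and its reverse complement CCGCCC, of which 2 overlap by 1 base.
Slc17a7: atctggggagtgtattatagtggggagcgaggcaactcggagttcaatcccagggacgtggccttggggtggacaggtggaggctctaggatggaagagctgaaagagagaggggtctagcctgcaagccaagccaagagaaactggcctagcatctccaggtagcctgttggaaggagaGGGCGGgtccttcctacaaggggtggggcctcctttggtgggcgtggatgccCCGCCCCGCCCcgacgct
With the next 50 bases its GC content was 63.7% with 13 CpGs. All 8 members matched the RefSeq table, with 10 windows among them. The GC box was found in 6 of these 10 and the letters TATAAA in 1, the window of Slc1a3, against 35.7% and 13.6% of the 32851 windows. Glud1 had the most GC-rich window at 81.0% with 51 CpGs. A match is a stretch of letters, not a site shown to be used.

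Between the replicates, Slc17a6 was the member that differed most. On TMM-scaled counts its log2 ratio of replicate 1 over replicate 2 was -0.41 (95% counting interval -0.59 to -0.24), a fold of 0.751. It was lower in replicate 1 under each scaling, from -0.63 on deposited TPM to -0.21 on spike-in scaling. In bulk tissue, fewer cells of a type and less RNA per cell cannot be told apart. None of the 8 genes lay over 2-fold apart, against 0.778% (99 of 12719) of all genes that averaged at least 100 expected counts.

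The other 7 members lay within 0.2 of 0 on the log2 scale. Slc1a2 at 0.02 was slightly higher in replicate 1, and the interval of Slc1a1 at 0.01 (-0.05 to 0.07) spanned 0; on kallisto counts both were lower, at -0.03 and -0.05. Slc1a3 at -0.08, Glul at -0.14, Glud1 at -0.12 and Slc17a7 at -0.17 were lower, though Slc1a3 was at 0.01 on deposited TPM, and the interval of Slc17a8 (-0.34 to 0.32) spanned 0 too. The median of the 8 was -0.10, against -0.04 over all 12719 measured genes. Directions depended on the scaling: with libraries scaled to the ERCC spike-ins, synthetic RNAs added in known amounts, the median of all genes moved to 0.17, and Slc17a6 was then the only member below 0. Relative to that shift, Slc1a1 at 0.22 and Slc1a2 at 0.22 lay above the median, and Glul at 0.07, Glud1 at 0.08 and Slc17a7 at 0.04 below it.

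**Figure D2:**
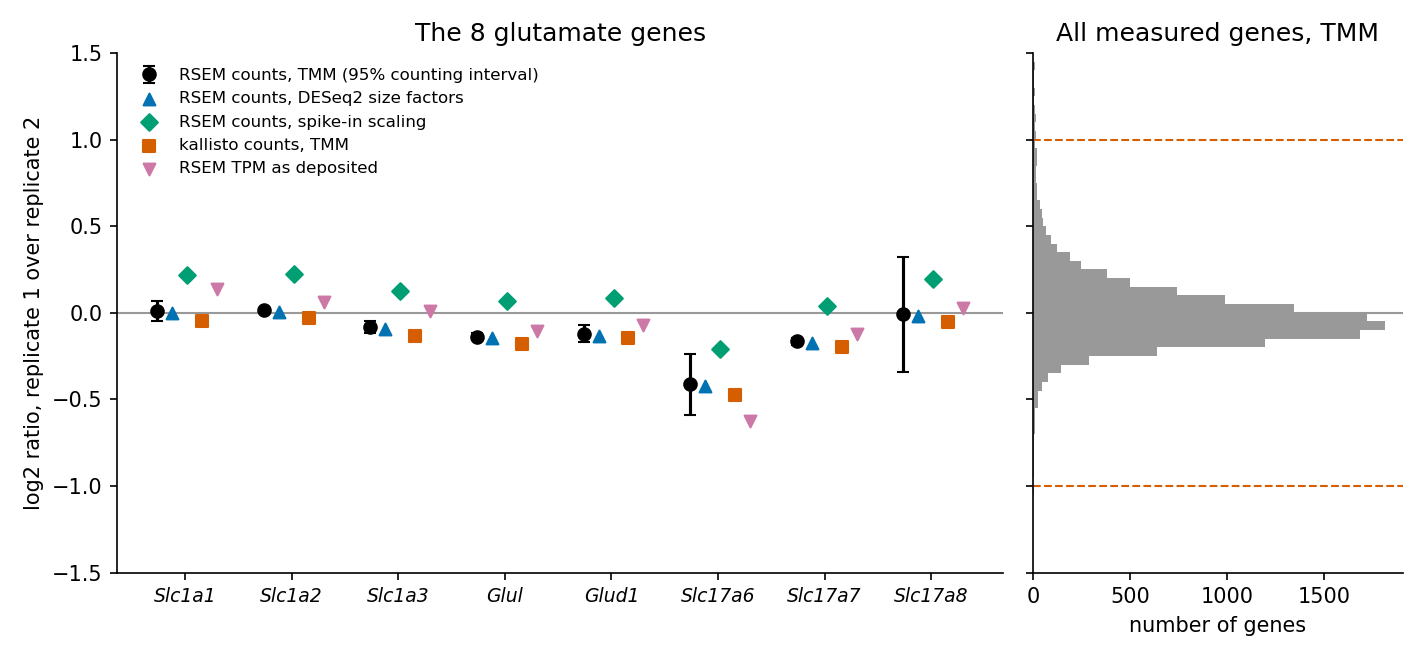
Left, log2 ratio of replicate 1 over replicate 2 for each member under 5 scalings, with the 95% counting interval on the TMM value. Right, the number of genes at each TMM ratio among the 12719 measured, with dashed lines at 2-fold. Slc17a6 lay below 0 under every scaling, and no member reached the lines.

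The replicates of Slc17a6 lay farther apart on the whole gene than on its coding model. Slc17a6-202, a processed transcript of 655 bases, had 0.480 TPM in replicate 1 and 2.62 TPM in replicate 2. Its share of the gene's expected counts was 1.29% in replicate 1, with a 95% Wilson interval of 0.635 to 2.98, and 5.40% in replicate 2, with one of 3.97 to 7.47. The coding model Slc17a6-201 had 5.04 TPM in replicate 1 and 6.29 TPM in replicate 2, so that replicate 2 was 1.25-fold higher on this model and 1.59-fold higher on the whole gene. The kallisto tables ordered the replicates alike, with 2.84 TPM in replicate 1 and 6.60 TPM in replicate 2 for Slc17a6-202.

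Markers of cells and regions that could hold Slc17a6 did not all move alike between the replicates. The 8 thalamus markers summed to 51.4 TPM in replicate 1 and 50.5 TPM in replicate 2, and 6 of 8 reached 1 TPM. On average Ntng1 had 12.7 TPM, Prkcd 12.3, Rora 12.1, Lhx9 5.89, Tcf7l2 5.505 and Lef1 2.09 TPM. Below 1 TPM were Slitrk6 at 0.340 TPM and Gbx2, at 0.020 TPM in replicate 1 and 0 in replicate 2. The 3 subiculum markers summed to 30.9 TPM in replicate 1 and 29.9 TPM in replicate 2. Of these, Nts and Ly6g6e were lower in replicate 1, at -0.39 and -0.55 on the log2 scale, and Fn1 was at 0.07. Ly6g6e had only 40 expected counts in replicate 1 and 67 in replicate 2, too few to be among the measured genes. The 5 Cajal-Retzius markers summed to 33.7 TPM in replicate 1 and 29.7 TPM in replicate 2, with 3 of 3 measured genes higher in replicate 1. Most of that sum was Reln, at 22.4 TPM in replicate 1 and 19.1 TPM in replicate 2, and Ndnf, at 9.78 and 9.45 TPM. Interneurons also make Reln and Ndnf. Of the other markers, Trp73 had 1.33 TPM in replicate 1 and 0.970 TPM in replicate 2, and Lhx1 and Lhx5 were under 1 TPM. The 4 mossy cell markers summed to 25.7 TPM in replicate 1 and 29.7 TPM in replicate 2, but were split in direction. Most of that sum was Calb2, at 19.4 TPM in replicate 1 and 23.5 TPM in replicate 2. Both measured genes were lower in replicate 1, Calb2 at -0.32 and Calcrl at -0.07 on the log2 scale. Drd2 and Csf2rb2, with too few counts to be among the measured genes, were higher in replicate 1, at 0.10 and 0.53. The part of these cells in the difference of Slc17a6 was not tested.

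For Slc17a8, 5 markers of interneurons that make cholecystokinin summed to 383 TPM in replicate 1 and 444 TPM in replicate 2. All 5 were at or above 1 TPM, with Cck, which pyramidal neurons also make, at 290 and 335 TPM of those sums. On TMM-scaled counts 4 of 4 measured genes of this list were lower in replicate 1, with a median of -0.28 on the log2 scale. Markers of serotonergic raphe neurons, which also use Slc17a8, were near or at 0: Tph2 had 0.270 TPM in both replicates, and Slc6a4 and Fev were listed at 0. Of the astrocyte markers 10 of 10 reached 1 TPM, with sums of 874 TPM in replicate 1 and 893 TPM in replicate 2. All 6 excitatory neuron markers reached it too, with sums of 2538 TPM in replicate 1 and 2447 TPM in replicate 2. The higher sum in replicate 1 rested on Camk2a, at 1624 TPM in replicate 1 and 1485 TPM in replicate 2. On TMM-scaled counts 5 of these 6 markers were lower in replicate 1, with a median of -0.08 on the log2 scale. The median over all measured genes was -0.04. Of the 5 neocortex markers 4 reached 1 TPM, with sums of 59.6 TPM in replicate 1 and 64.6 TPM in replicate 2. Among them 3 of 4 measured genes were lower in replicate 1, with a median of -0.12. Also lower on this scaling were 8 of 10 astrocyte, 7 of 7 inhibitory neuron, 5 of 5 oligodendrocyte and 4 of 4 microglia markers. Their medians were -0.05, -0.19, -0.16 and -0.06, in the same order. Of the Cajal-Retzius markers, 3 of 3 measured were higher, with a median of 0.08. Slc17a7 was lower too, and a tie to any of these lists was not tested. The median of all genes was itself below 0 and moved to 0.17 with spike-in scaling, so these directions depend on the scaling.

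Each gene had 1 leading transcript model, the same in both replicates and in both kinds of table. This held for 8 of the 8 genes, against 66.2% of 11726 protein-coding genes. The leading share was highest for Slc17a7-201, at 96.1% of the gene's TPM in replicate 1 and 97.4% in replicate 2, apart from Slc17a8-201, to which RSEM gave all reads. For Slc17a8 the kallisto tables gave 17.2% of TPM to Slc17a8-202, which starts inside the gene at 89599815. The share was lowest for Glud1-201, at 69.6% and 70.0%. It moved most between replicates for Slc17a6-201, at 90.0% in replicate 1 and 70.4% in replicate 2, and for Slc1a1-201, at 74.1% and 84.7%.

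**Figure D3:**
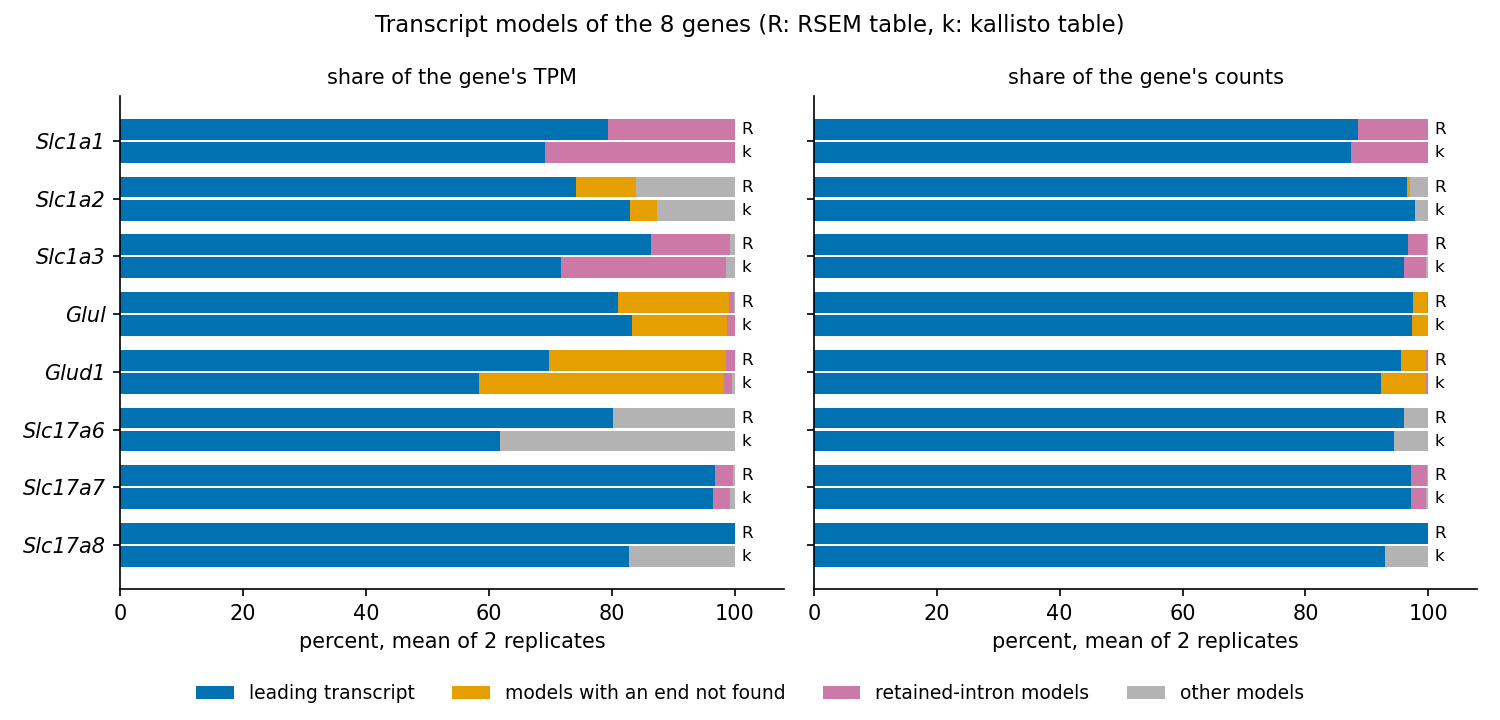
Share of each gene's TPM (left) and counts (right) held by its leading transcript, by models with an end not found, by retained-intron models and by other models, as means of 2 replicates, with the RSEM bar (R) above the kallisto bar (k). The leading transcript held over 85% of counts in every bar, and short models took a larger share of TPM than of counts.

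Retained-intron models, which keep intron sequence in the transcript, held part of the reads of Slc1a1, Slc1a3, Glul, Glud1 and Slc17a7. For Slc1a1, 5 such models held 14.9% of expected counts in replicate 1, with a 95% Wilson interval of 13.8 to 15.9, and 8.16% in replicate 2, with one of 7.43 to 8.95. For Slc17a7 they held 3.20% in replicate 1 and 2.02% in replicate 2. For Slc1a3 they held 3.60% in replicate 1 and 2.71% in replicate 2, of which the model Slc1a3-204, 469 bases long, took 1.17% and 0.915%. The RSEM tables gave Slc1a3-204 20.4 TPM in replicate 1 and 16.4 TPM in replicate 2, against 69.5 and 89.4 TPM in the kallisto tables. Slc1a1-204, of 573 bases, had 2.51 and 1.16 TPM in the RSEM tables, against 14.5 and 12.9 TPM in the kallisto tables. The intervals of the replicates did not overlap for Slc1a1, Slc1a3 and Slc17a7. They leave out the uncertainty of how reads are split among the models of a gene. In the kallisto tables the share of Slc1a1 was 14.7% in replicate 1 and 10.6% in replicate 2, the latter outside its interval above. Those of Slc1a3 were 3.89% and 3.26%, and those of Slc17a7 3.02% and 1.87%, in the same order.

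Glul had 0.212% in replicate 1 and 0.126% in replicate 2, and Glud1 0.451% and 0.421%, with overlapping intervals in both genes. The share was higher in replicate 1 in 5 of 5 members, but this was the rule in these libraries: 81.7% of 7053 genes with such a model showed it, with medians of 6.32% in replicate 1 and 4.24% in replicate 2. In the kallisto tables it was higher in replicate 1 in 4 of the 5, Glud1 being the exception at 0.330% in replicate 1 and 0.367% in replicate 2. For Slc1a1 these models weighed on the level, since Slc1a1-201 alone had 48.3 TPM in replicate 1 and 50.2 TPM in replicate 2, the reverse of the order for the whole gene.

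**Figure D4:**
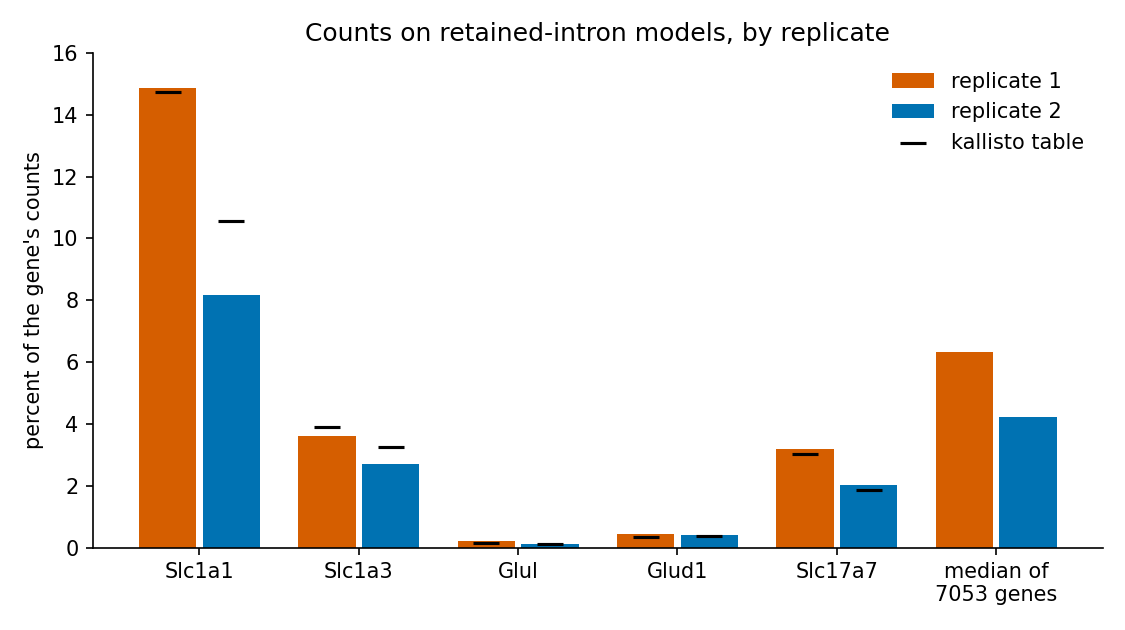
Percent of each gene's counts on retained-intron models, as bars for replicate 1 (orange) and replicate 2 (blue) from the RSEM tables and as dashes from the kallisto tables, with the median over 7053 genes of the RSEM tables at the right. Slc1a1 lay above that median in both replicates and the other members below it.

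The tables differed in level more than the replicates did. RSEM TPM lay below kallisto TPM for all 8 genes, by -0.43 on the log2 scale for Slc1a2 and by -0.92 for Slc1a3, and the median over 12907 nuclear protein-coding genes was -0.65, a fold of 0.636. Relative to that median, Slc1a2, Glul at -0.49 and Slc17a7 at -0.58 lay higher in the RSEM tables, and Slc1a3, Slc17a6 at -0.90, Slc17a8 at -0.78, Glud1 at -0.77 and Slc1a1 at -0.71 lay lower. The order of the 8 genes was the same in both tables.

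Other genes of the glutamate cycle were counted from lists for each step, and the 3 highest of each are named. Of the enzymes that make or use glutamate, Gad1, which forms the transmitter GABA from glutamate, had 143 ± 0.219 TPM, and the transaminases Got1 and Got2 had 139 ± 9.91 and 102 ± 6.48 TPM. The replicates of Gad1 and Got1 overlapped, and in the kallisto tables both Got1 at 217 TPM and Got2 at 159 TPM stood above Gad1 at 154 TPM. All 6 genes described from this list reached 1 TPM. Of the glutamine carriers 4 of 4 did, with Slc38a1 at 32.9 TPM, Slc38a2 at 27.9 TPM and Slc38a3 at 27.1 TPM. The replicates of Slc38a2 and Slc38a3 overlapped, and in the kallisto tables Slc38a3 was the highest at 55.8 TPM. Slc38a1 and Slc38a2 are known for glutamine uptake by neurons and Slc38a3 for its release by astrocytes.

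The other plasma membrane carriers were low beside Slc1a2, with 4 of 5 at or above 1 TPM. They were led by Slc1a4, a carrier of neutral amino acids, at 18.9 ± 1.28 TPM, the cystine-glutamate exchanger Slc7a11 at 11.2 ± 1.41 TPM and Slc1a6, the transporter of cerebellar Purkinje cells, at 4.82 ± 0.198 TPM. Slc1a7, the transporter known from retina, was the one below, at 0.030 TPM in replicate 1 and 0 in replicate 2. Of the mitochondrial carriers 4 of 4 reached 1 TPM, with the glutamate carrier Slc25a22 at 155 TPM, the aspartate-glutamate carrier Slc25a12 at 69.5 TPM and the glutamate carrier Slc25a18 at 22.6 TPM.

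Outside the vesicular glutamate transporters, the SLC17 family was low in these tables. Slc17a5, the lysosomal sialic acid carrier, had 8.91 TPM, Slc17a9, a carrier of nucleotides, 0.140 TPM and Slc17a2 0.030 TPM, and only Slc17a5 of 6 reached 1 TPM. Genes that acidify the vesicle were abundant, with 5 of 5 above 10 TPM. The proton pump subunit Atp6v0c had 558 TPM, Atp6v1a 239 TPM and Atp6v1b2 237 TPM.

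Of the list genes that averaged at least 100 expected counts, none lay over 2-fold apart between replicates. As log2 of replicate 1 over replicate 2, the median was -0.16 for the enzymes, -0.04 for the glutamine carriers, -0.13 for the other membrane carriers, -0.16 for the mitochondrial carriers and -0.18 for the genes of vesicle acidification, against -0.04 over all genes. That of the members was -0.10.

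**Figure D5:**
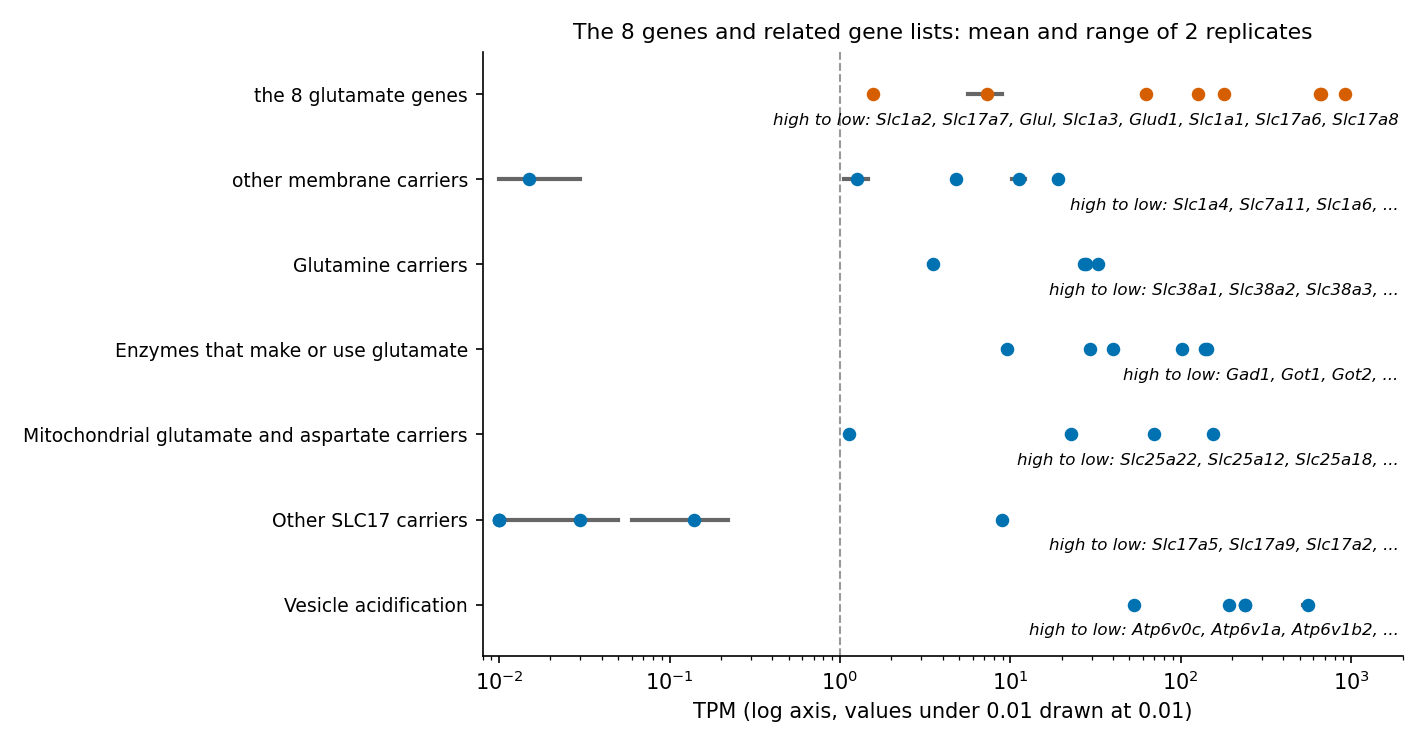
TPM on a log axis for the 8 genes (orange) and for the members of 6 related lists (blue), as means with a bar from the lower to the higher replicate, values under 0.01 drawn at 0.01, and a dashed line at 1 TPM. Slc1a2, Slc17a7 and Glul lay to the right of every listed gene, and most other SLC17 carriers lay left of the line.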

How the data were processed

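Both libraries were total RNA made from 300 ng with ERCC spike-ins, per the labels. Per the deposited notes, tables refer to mm10 and GENCODE M21. For the aligner and the program versions, nothing is given in the sources used here. Per the file headers, the authors' gene tables and one transcript table hold RSEM expected counts and TPM, with posterior means and a posterior SD, used as a score of uncertainty, and the other transcript table holds kallisto estimated counts and TPM. The percent of each gene per transcript was computed here from these values, not taken from the column of percentages the authors deposited. TPM divides counts by effective length, so short models gain TPM relative to counts.

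Spike-in rows (112913 counts in replicate 1 and 148536 in replicate 2) and 26249 rows that name no gene (6 and 2 counts) stayed out of library sizes. Expected counts were rounded for replicate ratios: edgeR 4.0.16 TMM factors in R 4.3.3, prior count 0.5, with no p-values. The ratio step was tested on simulated data. Other steps ran in Python 3.11.15 (scipy 1.17.1, numpy 2.4.6, pandas 2.3.3). Sequences came from GENCODE M21 transcripts and, for promoters, RefSeq (GRCm38.p6). The 32851 promoter windows leave out those of a chromosome that holds no member. Intervals of shares of counts are 95% Wilson intervals, which cover counting error only and not the split of reads among models.

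All members were named, transcripts with at least 10% of their gene's TPM in either table, and the 3 highest genes of each list. Members and lists were chosen with earlier results of these data known. One list gene was matched through a RefSeq synonym, Pcx, and another is not reported here. Alternatives were DESeq2 1.42.0 size factors, spike-in scaling, deposited TPM, kallisto tables, counts-per-million, posterior mean TPM, nuclear TPM, other minimums and prior counts, and each replicate left out; leading transcripts alone were added after the data were seen.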

Additional observations from a re-analysis of the deposited data

How the results depend on the processing

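The share of Slc1a2 among the uptake transporters was 73.6% in the kallisto tables, 90.4% on counts-per-million and 76.8% on leading transcripts alone, and 78.9% to 79.2% with 1 replicate left out. The share of Slc17a7 among the vesicular transporters was 98.4% both in the kallisto tables and on counts-per-million, and 98.5% to 98.9% with 1 replicate left out. The ratio of Glul over Glud1 was 4.28 in the kallisto tables, 4.86 on counts-per-million and 6.06 on leading transcripts alone, and 5.16 to 5.29 with 1 replicate left out. Counts-per-million lack a length correction by construction; the cause of the kallisto difference was not tested. No member lay over 2-fold apart under DESeq2 size factors, spike-in scaling, deposited TPM, kallisto counts or a prior count of 5. Without a count minimum, 6540 of 27847 genes lay over 2-fold apart. No paired analysis was possible because there is 1 group. With 2 replicates of unsettled origin, an SD is a rough measure, and the low counts of Slc17a8 limit what could be seen of it.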
